A study of Homo sapiens with 5 samples.

Results

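The genes described here are those that make cholesterol and fatty acids, and were chosen by symbol: 32 of the 25382 genes in the deposited count table. They were measured by RNA sequencing in MDA-MB-231, an established mesenchymal line of human breast cancer without hormone receptors, grown in medium with fetal bovine serum. The cells were separated by shear stress into those that came off easily and those that held on. The groups are 3 weakly adherent libraries, dated 6, 12 and 15 March in their titles, and 2 strongly adherent libraries, dated 6 and 15 March. All 5 come from 1 cell line, and no genotype or drug separates the groups. The labels do not say whether the libraries came from separate cultures or which step the date marks. The p-values therefore measure the spread between these libraries only, which the tests pool in part over genes. Because shear made the groups, what it did to the cells and what they were before it cannot be told apart.

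Each library held 19630386 to 21707459 reads assigned to genes. The 32 genes together took 0.244% to 0.266% of them, with 84 to 9927 reads per gene and library, and all 32 passed the filter on low counts. Levels are CPM, counts relative to library size, scaled by the trimmed mean of M-values (TMM), not divided by gene length, so they are compared between libraries and not between genes. Of the mesenchymal markers, VIM, CD44, AXL and ZEB1 were present in all libraries, at 2458 to 2746 CPM for VIM, while SPARC stayed at 0.190 to 0.591 CPM. Of the epithelial and luminal markers, ESR1 and PGR had no read, which allows up to 0.153 CPM per library, FOXA1 had at most 0.0950 CPM, CDH1 1.18 to 2.07 CPM, GATA3 12.4 to 14.0 CPM and EPCAM 19.4 to 25.8 CPM.

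Cholesterol is built from acetyl-CoA through mevalonate, isoprenoid units and squalene, and fatty acids are built from the same acetyl-CoA through malonyl-CoA. Both branches are switched on by the transcription factors SREBP-2 and SREBP-1, which are held in the endoplasmic reticulum by SCAP and INSIG proteins while sterols are plentiful and travel to the Golgi for cleavage when sterols run low. Their targets include most of the enzymes, INSIG1 itself and SREBF2, so that the pathway senses and corrects its own output.

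SREBP proteins bind the sterol regulatory element together with NF-Y and Sp1, and the 250 bases before the start of each gene were searched for these elements on both strands. Promoters of 28 of the 32 genes were found in RefSeq's promoter table (GRCh38.p14), 40 in all because some genes have several starts. The sterol regulatory element TCACNCCAC was in 1 of these 40 promoters, that of SREBF2, and in 0.883% of all 35116 promoters of the same length. The NF-Y box CCAAT was in 62.5% of the 40, against 32% of all promoters, and the Sp1 box GGGCGG in 87.5%, against 42.6%. The promoters compared were not matched for base content or for expression of their genes, so these shares are not shown to be particular to the pathway. The E-box CACGTG, which SREBP proteins can also bind, was in 10% of the 40, those of INSIG1, SC5D and SCAP, against 6.34% of all. Matches on the minus strand read ATTGG and CCGCCC here. Shown are the promoter of SREBF2, the one with the sterol element, and those of SC5D (1 of its 2), MSMO1 and INSIG1, added after their values were seen because these genes differed most clearly between the dates. Capitals mark the 4 motifs, and in INSIG1 a pair of Sp1 boxes overlap by 1 base. The positions in GRCh38.p14, all on the plus strand, are chr22:41832855-41833104 for SREBF2, chr11:121292521-121292770 for SC5D, chr4:165327419-165327668 for MSMO1 and chr7:155297628-155297877 for INSIG1.
SREBF2: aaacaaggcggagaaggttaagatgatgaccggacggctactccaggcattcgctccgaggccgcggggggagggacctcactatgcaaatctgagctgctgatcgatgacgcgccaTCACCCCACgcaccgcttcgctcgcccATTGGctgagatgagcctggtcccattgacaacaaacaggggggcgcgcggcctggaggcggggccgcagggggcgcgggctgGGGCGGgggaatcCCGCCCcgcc
SC5D: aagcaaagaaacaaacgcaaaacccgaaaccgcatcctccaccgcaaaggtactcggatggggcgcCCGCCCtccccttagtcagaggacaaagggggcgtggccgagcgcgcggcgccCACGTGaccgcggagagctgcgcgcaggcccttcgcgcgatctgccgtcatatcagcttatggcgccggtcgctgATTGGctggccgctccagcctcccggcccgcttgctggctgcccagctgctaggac
MSMO1: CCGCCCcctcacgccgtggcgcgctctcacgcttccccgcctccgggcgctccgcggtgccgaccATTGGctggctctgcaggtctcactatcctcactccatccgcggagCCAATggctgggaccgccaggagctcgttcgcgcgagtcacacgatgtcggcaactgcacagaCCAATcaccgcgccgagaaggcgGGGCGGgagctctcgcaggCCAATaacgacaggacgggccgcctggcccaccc
INSIG1: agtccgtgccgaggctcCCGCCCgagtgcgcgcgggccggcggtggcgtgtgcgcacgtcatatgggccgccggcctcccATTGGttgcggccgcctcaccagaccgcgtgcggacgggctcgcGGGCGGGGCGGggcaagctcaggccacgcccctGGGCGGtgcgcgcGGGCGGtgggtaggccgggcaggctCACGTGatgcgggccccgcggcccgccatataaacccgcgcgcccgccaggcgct
In SREBF2 the sterol element lies 133 to 125 bases before the start, with an NF-Y box 106 to 102 bases before it. MSMO1 holds 4 NF-Y boxes and INSIG1 holds 5 Sp1 boxes in these windows. A match describes letters only, and where there is none, the letters are not in this window.

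Of the 32 genes 1 was called by adhesion, without or with the date as a block, and 7 by date with adhesion as a covariate. In weakly against strongly adherent cells 1 of the 32 genes rose, ACACA, whose enzyme makes malonyl-CoA, and 0 fell by the quasi-likelihood test of edgeR, called where the p adjusted by Benjamini-Hochberg was under 0.05. In bulk RNA, fewer cells of a type and less RNA per cell cannot be told apart. At an unadjusted p under 0.05, 2 were higher and 1 was lower, against 1045 and 844 of all 13297 genes. The test called 1.77% of the 13297 genes tested higher and 0.918% lower, 2.68% in all, so 1 of 32 is near the background. With the date as a block, the libraries were compared within the shared dates. Again 1 rose and 0 fell, against 6.2% and 5.28% of all genes (11.5% in all). At an unadjusted p under 0.05, 2 were higher and 2 lower with the block, against 1533 and 1377 of all 13297 genes. DESeq2 and limma-voom, without the block, each called 1 higher and 0 lower. The median log2 fold change over the 32 genes was -0.01 without the block and -0.02 with it, beside 0.00 for all genes in both fits.

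Between the dates, 7 of the 32 genes rose on 15 March against 6 March and 0 fell, in a fit over the 4 libraries of these dates with adhesion as a covariate. They were SC5D, MSMO1, INSIG1, IDI1, CYP51A1, SCD and STARD4. At an unadjusted p under 0.05, 12 were higher and 2 were lower, against 1806 and 1180 of all 13249 genes. That test called 6.74% of 13249 genes higher and 2.55% lower, 9.29% in all. Both libraries of 15 March lay above both of 6 March for 15 of the 32 genes, against 21.8% of all genes, and below them for 4, against 19.7%. Over the 32 genes the median log2 fold change was 0.08, beside 0.00 for all genes, and 26 were positive, against 50.6% of all genes. The fit leaves 1 residual degree of freedom, so the error of each of these genes rests almost wholly on the spread pooled over genes. Its small p-values do not measure how well a single gene repeated. The calls depend on the model: without the adhesion covariate 0 genes were called in either direction, 0 of the 32 included. DESeq2's Wald test called 3 of the 32, MSMO1, SC5D and INSIG1. Depth was similar on both dates, while the share of reads not aligned was highest in the strongly adherent library of 15 March, at 3.02% against 1.74% to 2.07% in the others. Its part in these results was not tested.

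**Figure D1:**
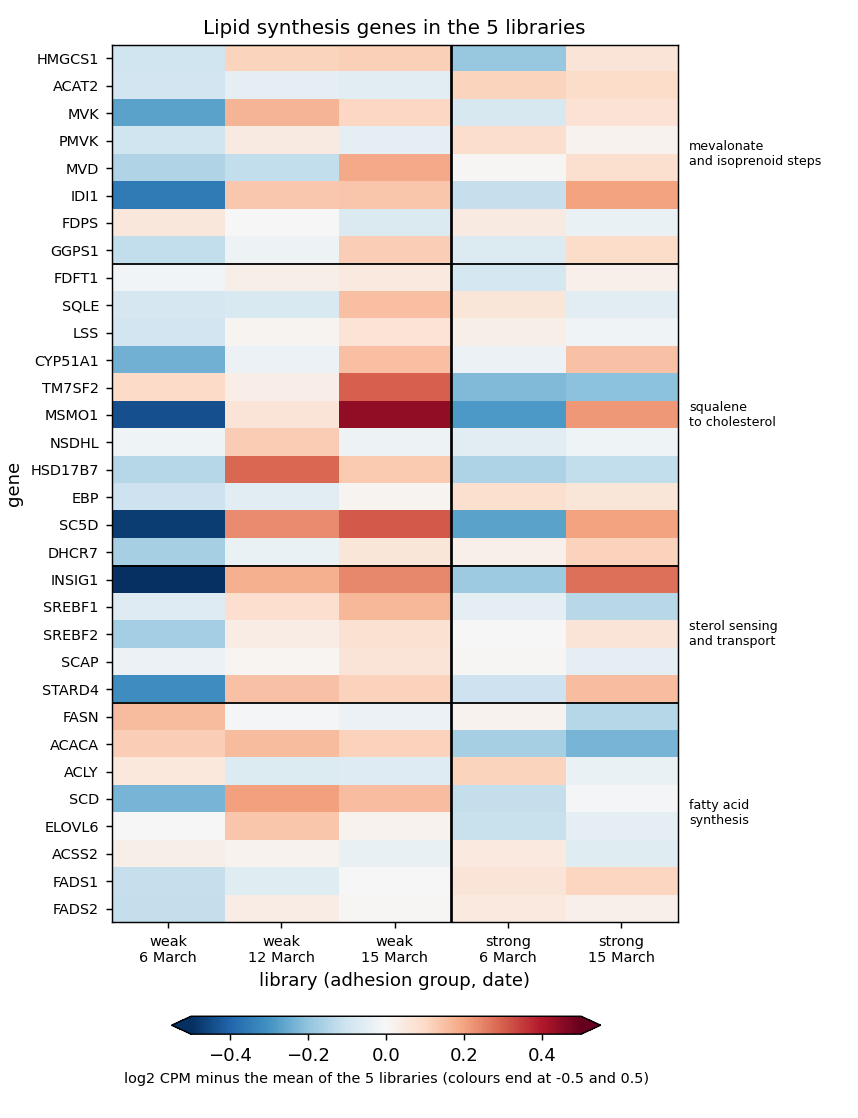
Each row is 1 of the 32 genes and each column 1 library, weakly adherent on the left and strongly adherent on the right of the vertical line; colour is the log2 CPM minus the mean of the 5 libraries. The rows of MSMO1, SC5D, INSIG1, IDI1 and STARD4 are blue in both libraries of 6 March and red in those of 12 and 15 March, whereas ACACA is red in all 3 weakly and blue in both strongly adherent libraries.

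The mevalonate and isoprenoid steps were 8 genes. None of them was called by adhesion, by edgeR with or without the block, and 1 was lower at an unadjusted p under 0.05 in each fit. By date 1 of 8 rose, and 4 were higher at an unadjusted p under 0.05. HMGCS1, which condenses acetyl groups into HMG-CoA, had 36.0, 41.7 and 42.0 CPM in weakly adherent libraries, in the order 6, 12 and 15 March, against 33.8 and 40.4 CPM in the strongly adherent ones of 6 and 15 March. The groups overlapped, and the adhesion log2 fold change was 0.10 (SE 0.11, edgeR's adjusted p = 0.78). Both libraries of 15 March lay above both of 6 March, at a log2 fold change of 0.23 (SE 0.08, adjusted p = 0.055), just outside the threshold. With all 5 libraries and 3 dates in the fit the adjusted p was 0.045.

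IDI1, the isomerase that makes the reactive isoprenoid unit, had 53.0 CPM in the weakly and 55.4 CPM in the strongly adherent library of 15 March, against 37.7 and 44.5 CPM on 6 March. On 12 March, at 53.0 CPM, the weakly adherent library was level with those of 15 March. The date difference was 1.32-fold (log2 0.40, SE 0.08, edgeR's adjusted p = 3.5e-05), and the adhesion log2 fold change was -0.06 (SE 0.17, adjusted p = 0.94), and -0.15 (SE 0.08, adjusted p = 0.26) with the date block. IDI1 was below its strongly adherent partner on both dates, by 0.06 on the log2 scale on 15 March and 0.24 on 6 March.

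ACAT2, the cytosolic thiolase at the head of the pathway, had the next smallest adhesion p of the 32 genes after ACACA. It had 77.5, 80.0 and 79.6 CPM in weakly adherent libraries, against 89.4 and 88.3 CPM in the strongly adherent ones. The groups did not overlap, as for 14.5% of all genes in that direction, but the log2 fold change of -0.17 (SE 0.07) did not pass edgeR's test (adjusted p = 0.30, or 0.081 with the block). ACAT2 overlaps TCP1 on the genome, and how the counting treated strand is not given in the sources used here. The other mevalonate genes, MVK, PMVK, MVD, FDPS and GGPS1, had adhesion log2 fold changes of -0.09 to 0.02 and date log2 fold changes of -0.11 to 0.26.

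From squalene to cholesterol there were 11 genes, and 3 of them rose by date while 0 changed by adhesion with or without the block, where 1 was higher and 0 lower at an unadjusted p under 0.05. All 11 had a positive date log2 fold change, against 50.6% of all genes. The 11 ran from 0.01 to 0.69, with a median of 0.11. The largest belonged to MSMO1, the oxidase that removes methyl groups from the sterol ring. MSMO1 had 36.8 CPM in the weakly and 31.5 CPM in the strongly adherent library of 15 March, against 20.0 and 22.2 CPM on 6 March. On 12 March weakly adherent cells had 28.3 CPM. The date difference was 1.61-fold (log2 0.69, SE 0.09, edgeR's adjusted p = 5.9e-11). Its adhesion log2 fold change was 0.08 (SE 0.26, adjusted p = 0.95), and 0.06 (SE 0.09, adjusted p = 0.81) with the block. The groups overlapped, with both libraries of 6 March lowest.

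SC5D, a late desaturase of the pathway, had 63.1 CPM in the weakly and 58.6 CPM in the strongly adherent library of 15 March, against 36.6 and 42.3 CPM on 6 March. At 60.0 CPM the weakly adherent library of 12 March again lay with the later date. The date difference was 1.54-fold (log2 0.62, SE 0.08, edgeR's adjusted p = 2.4e-12), the smallest p of the 32 genes, while adhesion gave a log2 fold change of 0.08 (SE 0.25, adjusted p = 0.96), or -0.04 (SE 0.08, adjusted p = 0.86) with the block. CYP51A1, the lanosterol demethylase, had 79.4 and 79.3 CPM in the weakly and strongly adherent libraries of 15 March, against 60.6 and 70.2 CPM on 6 March. It rose 1.21-fold by date (log2 0.28, SE 0.07, edgeR's adjusted p = 0.0036), and the library of 12 March, at 70.0 CPM, was level with the strongly adherent one of 6 March.

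SQLE, the squalene epoxidase that sets the pace of the sterol branch, had 19.5, 19.6 and 23.0 CPM in the weakly adherent libraries and 21.6 and 19.9 CPM in the strongly adherent ones. No order by adhesion or date was visible, at log2 fold changes of -0.0012 (SE 0.11, edgeR's adjusted p = 1.00) and 0.06 (SE 0.10, adjusted p = 0.79). TM7SF2, a sterol reductase with few reads, had 6.56, 6.28 and 7.55 CPM in weakly adherent cells, against 5.27 and 5.32 CPM in strongly adherent ones. Its groups did not overlap, as for 15.5% of all genes in that direction, and the log2 fold change of 0.36 (SE 0.15) missed the threshold (edgeR's adjusted p = 0.31, or 0.081 with the block). Of the other genes of this branch, FDFT1, LSS, NSDHL, HSD17B7, EBP and DHCR7, adhesion log2 fold changes ran from -0.12 to 0.24 and date log2 fold changes from 0.01 to 0.15. HSD17B7 has near-identical pseudogene copies, which makes its 84 to 106 reads per library uncertain.

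Of the 5 genes for sterol sensing and transport, 2 rose by date and 0 were called by adhesion in either fit, where none had an unadjusted p under 0.05. INSIG1, an anchor of SCAP, had 36.8 CPM in the weakly and 37.7 CPM in the strongly adherent library of 15 March. On 6 March the weakly and strongly adherent libraries had 21.9 and 27.4 CPM. The library of 12 March, at 35.2 CPM, lay above both libraries of 6 March. INSIG1 rose 1.51-fold by date (log2 0.60, SE 0.09, edgeR's adjusted p = 6.2e-09). Its adhesion log2 fold change was -0.06 (SE 0.23, 95% interval -0.61 to 0.49, adjusted p = 0.97), or -0.17 (SE 0.09, adjusted p = 0.25) with the block, and it was lower in weakly adherent cells on both dates. STARD4, a carrier of free cholesterol between membranes, had 17.4 and 17.9 CPM in the weakly and strongly adherent libraries of 15 March, against 12.9 and 14.9 CPM on 6 March, a 1.26-fold difference (log2 0.34, SE 0.11, edgeR's adjusted p = 0.029). STARD4, CYP51A1 and IDI1 share their place on the genome with antisense genes (STARD4-AS1, CYP51A1-AS1 and IDI2-AS1), whose reads could be counted with theirs if strand was not used.

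SREBF2, which encodes SREBP-2, had 60.6, 70.0 and 71.9 CPM in weakly adherent cells and 68.1 and 71.3 CPM in strongly adherent cells. Its date log2 fold change was 0.15 (SE 0.07, edgeR's adjusted p = 0.19) and its adhesion log2 fold change -0.05 (SE 0.09, adjusted p = 0.91). SREBF1, which encodes SREBP-1, had 53.2, 58.9 and 62.3 CPM in weakly adherent cells against 53.7 and 50.5 CPM in strongly adherent cells, at 0.16 by adhesion (SE 0.09, adjusted p = 0.49) and 0.07 by date (SE 0.08, adjusted p = 0.65). SCAP, the escort that senses sterols, lay between 95.5 and 103 CPM in all 5 libraries. Neither comparison called these 3 genes, and cleavage of the SREBP proteins is not measured by their RNA.

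**Figure D2:**
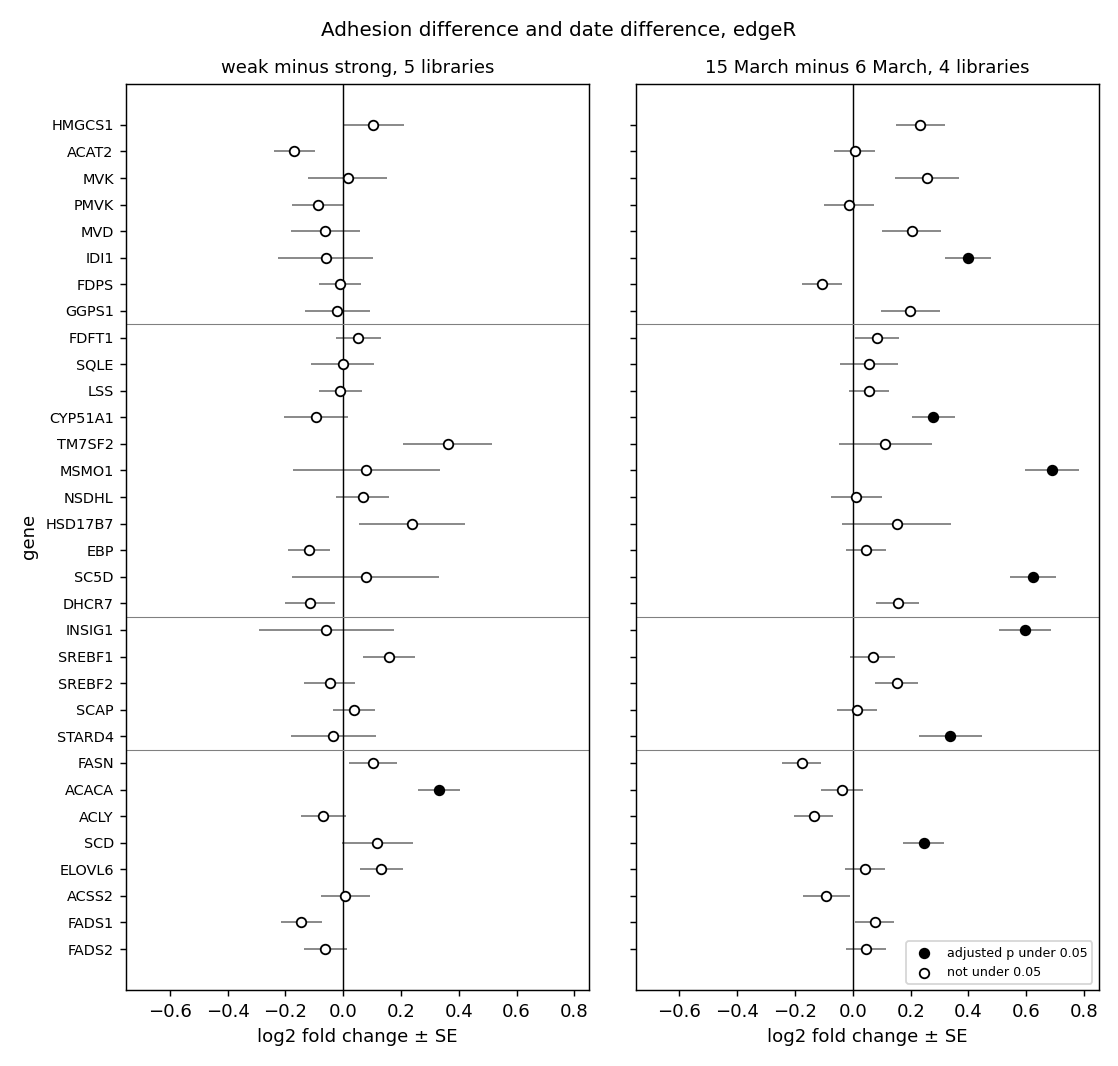
Points are log2 fold changes of the 32 genes with bars of 1 SE from edgeR, weak minus strong on the left and 15 March minus 6 March on the right. The fit on the left had no date block, and that on the right had adhesion as a covariate. Filled points have an adjusted p under 0.05. One point is filled on the left, ACACA at 0.33, and 7 on the right, from SCD at 0.24 to MSMO1 at 0.69.

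Of the 8 fatty acid genes 1 rose by date and 1 by adhesion, and 0 fell in either comparison (2 and 0 were lower at an unadjusted p under 0.05). The median date log2 fold change was 0.00, with 4 positive and 4 negative. SCD, the desaturase that makes oleic acid, had 117 CPM in the weakly and 104 CPM in the strongly adherent library of 15 March, against 89.2 and 96.7 CPM on 6 March, and 121 CPM on 12 March. The date difference was 1.18-fold (log2 0.24, SE 0.07, edgeR's adjusted p = 0.0097), and adhesion gave a log2 fold change of 0.12 (SE 0.12, adjusted p = 0.79). FASN, the synthase that builds palmitate, had 252 and 233 CPM in the weakly and strongly adherent libraries of 15 March, against 287 and 260 CPM on 6 March. Both libraries of the later date were lower, at a log2 fold change of -0.18 (SE 0.07, edgeR's adjusted p = 0.077). ACLY, which splits citrate into acetyl-CoA, had 413 and 423 CPM on 15 March against 448 and 467 CPM on 6 March (log2 fold change -0.14, SE 0.07, edgeR's adjusted p = 0.21).

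ACACA, acetyl-CoA carboxylase, which commits carbon to fatty acids, was the 1 gene called by adhesion. Weakly adherent libraries of 6, 12 and 15 March held 93.4, 95.8 and 93.1 CPM of it, against 76.4 and 73.1 CPM in the strongly adherent ones of 6 and 15 March. The groups did not overlap, which in this direction held for 3 of the 32 genes and 15.5% of all genes, and the gap was wider than the spread within either: 94.1 ± 1.51 CPM (SD, n = 3) in weakly and 74.7 ± 2.34 CPM (SD, n = 2) in strongly adherent cells. ACACA rose 1.26-fold (log2 0.33, SE 0.07, edgeR's adjusted p = 0.031, or 0.00014 with the date block), by 0.35 on the log2 scale in the pair of 15 March and 0.29 in that of 6 March. By date it had a log2 fold change of -0.04 (SE 0.07, adjusted p = 0.81). The call was lost on leaving out the strongly adherent library of 6 March (edgeR's adjusted p = 0.14), that of 15 March (0.21), the weakly adherent one of 12 March (0.13) or that of 15 March (0.066), although the log2 fold change stayed between 0.30 and 0.36. The call held when the weakly adherent one of 6 March was dropped (edgeR's adjusted p = 0.042).

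ACACA has a coding sequence of 7149 bases, and long genes as a class were higher in weakly adherent cells. Among 181 genes with 6 to 8 kb of coding sequence the median adhesion log2 fold change was 0.21, and 17.1% were called higher. After the coding length trend was taken out of every library, ACACA had a log2 fold change of 0.07 (edgeR's adjusted p = 0.88), or 0.04 (0.84) once dates were blocked, and 0 of the 32 genes were called by adhesion. FASN, with a coding sequence of 7533 bases, had an adhesion log2 fold change of 0.10 (SE 0.08, edgeR's adjusted p = 0.69), which turned to -0.19 without the length trend (adjusted p = 0.43). By date FASN passed with that trend removed, at -0.24 (adjusted p = 0.0098).

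The remaining fatty acid genes were ELOVL6, ACSS2, FADS1 and FADS2. ELOVL6, which elongates palmitate, had 139, 153 and 140 CPM in weakly adherent cells against 128 and 135 CPM in strongly adherent cells (log2 fold change 0.13, SE 0.07, edgeR's adjusted p = 0.49). FADS1, the delta-5 desaturase of polyunsaturated fatty acids, had 157, 163 and 170 CPM against 178 and 183 CPM (log2 fold change -0.14, SE 0.07, edgeR's adjusted p = 0.38). Both sets of libraries were apart without overlap, yet neither passed, also with the block (adjusted p = 0.51 for ELOVL6 and 0.16 for FADS1). ACSS2 and FADS2 had adhesion log2 fold changes of 0.01 and -0.06, and FADS1 and FADS2 are neighbours whose annotated spans overlap.

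**Figure D3:**
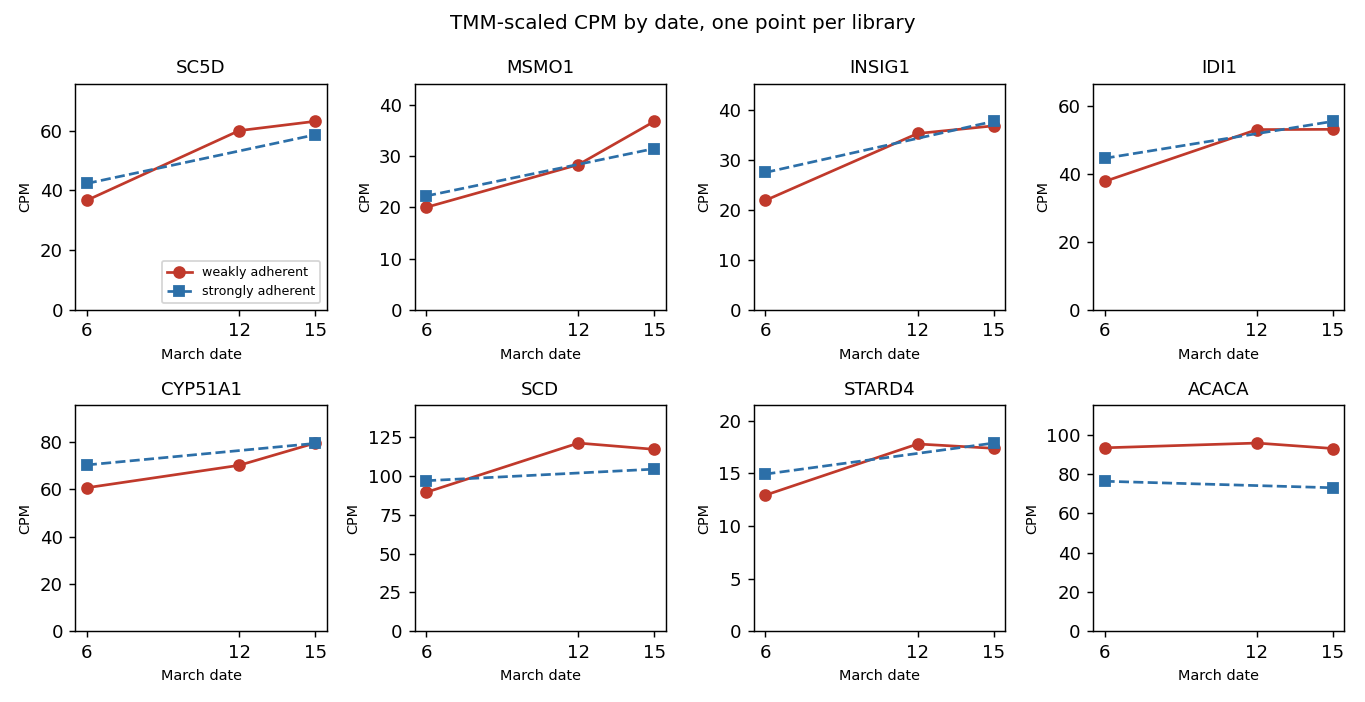
CPM (vertical axis, from 0) against the March date for the 7 genes called between the dates and for ACACA; circles are weakly and squares strongly adherent libraries, 1 point per library, and lines join libraries of 1 group. In the first 7 panels each group's library of 15 March lies above its library of 6 March; in the ACACA panel the groups lie apart, at 93.1 to 95.8 CPM in weakly and 73.1 to 76.4 CPM in strongly adherent cells.

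The date difference was next taken within each adhesion group. For the 7 called genes the log2 ratio of 15 over 6 March was 0.39 to 0.88 in weakly and 0.11 to 0.50 in strongly adherent cells, and the ratio in weakly adherent cells was the larger for all 7. Over all 32 genes the median log2 ratio was 0.21 in weakly and 0.04 in strongly adherent cells, beside 0.02 and -0.0009 for all genes tested. Each of these ratios rests on 1 library per date, and the difference between the groups was not tested, since 4 libraries leave no degree of freedom for it.

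The same libraries, read as adhesion pairs, gave a ratio that changed with the date. In the pair of 15 March 20 of the 32 genes were higher in weakly adherent cells, with a median log2 ratio of 0.03, and in the pair of 6 March 9 were, with a median of -0.13. For all genes tested these medians were 0.01 and -0.01, and 6933 and 6481 of 13296 genes were higher. Lower in weakly adherent cells on both dates were 10 genes, among them IDI1, INSIG1, STARD4, ACAT2, FADS1 and ACLY, and higher on both dates were 7, among them ACACA, TM7SF2, FASN, ELOVL6 and HMGCS1. The ratios of IDI1, INSIG1, ACLY and ELOVL6 did not exceed counting error on 15 March, nor did that of TM7SF2 on 6 March. Those of STARD4 and HMGCS1 did not exceed it on either date. The sign differed between the dates for 15 genes, 13 of which were lower on 6 March and higher on 15 March. How many of all genes kept or changed their sign was not counted, so these counts have no background beside them. By the median of all 32 genes, the lowest of the 5 libraries was the weakly adherent one of 6 March, at -0.10 on the log2 scale from the mean of the 5. The other weakly adherent libraries, those of 12 and 15 March, were at 0.03 and 0.09. The strongly adherent ones of 6 and 15 March were at -0.04 and 0.02.

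**Figure D4:**
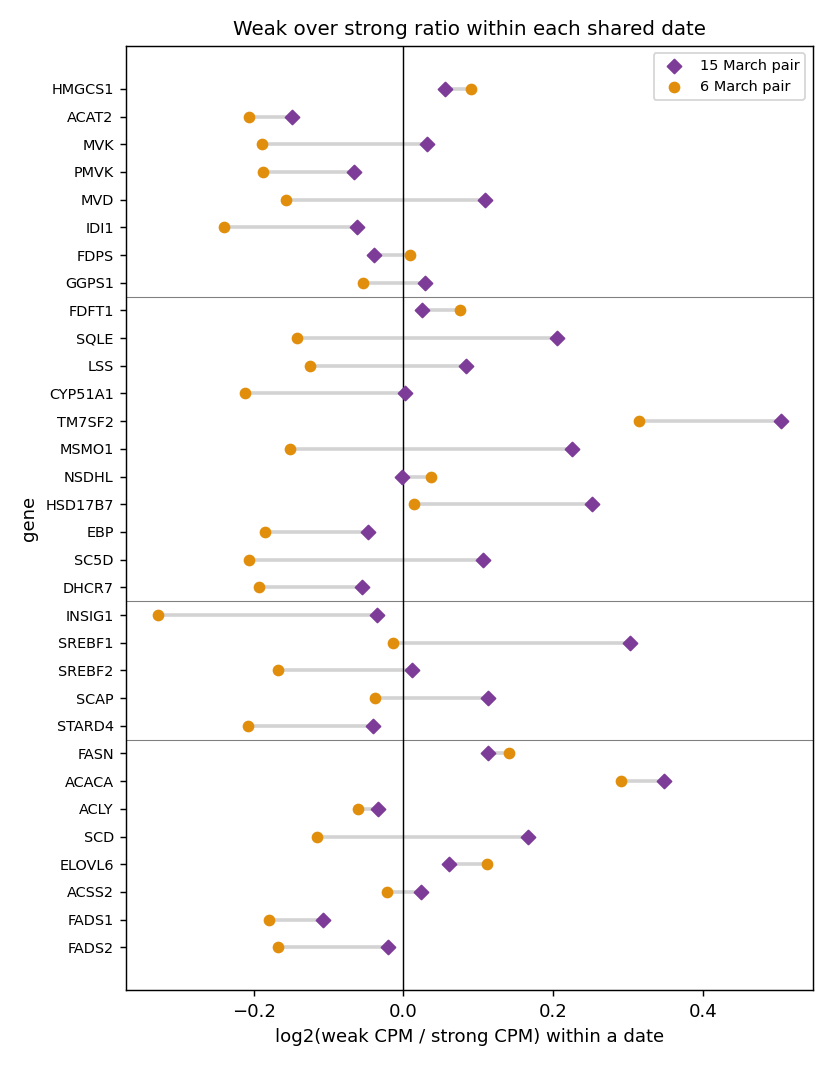
Log2 ratio of weakly over strongly adherent CPM for each gene in the pair of 15 March (diamonds) and of 6 March (circles), with a grey bar between them. The diamond lies to the right of the circle for 26 of the 32 genes, a share not counted over all genes. ACACA and TM7SF2 lie right of 0 on both dates.

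The weakly adherent library of 12 March was not used in the comparison of dates. It lay above both libraries of 6 March for 6 of the 7 genes called between the dates, the exception being CYP51A1, and for 17 of all 32. This was so for 34.2% of all genes tested and for 83.9% of all 893 genes called higher on 15 March, so that 6 of 7 is near what any gene of that class showed. With no strongly adherent library of 12 March, adhesion and date cannot be told apart for this library.

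Genes around the pathway were followed in 6 lists with 69 genes, of which 68 were tested. By adhesion 1 rose and 0 fell without the block, and 3 rose and 7 fell with it. At an unadjusted p under 0.05 without the block, 4 were higher and 5 lower, against 1045 and 844 of all 13297 genes. By date 8 rose and 1 fell. These are 1.47%, 14.7% and 13.2% of the 68 genes, against 2.68%, 11.5% and 9.29% of all genes, so the shares lie near the background. With the date block as a random effect in limma-voom, 4 of the 10 blocked calls passed. Among 9 genes for SREBP processing and sterol-dependent turnover, the ubiquitin ligase RNF145 had 102, 109 and 99.6 CPM in weakly adherent cells, against 77.4 and 76.5 CPM in strongly adherent cells. It rose by 0.43 on the log2 scale (SE 0.08, edgeR's adjusted p = 0.0095, or 1.0e-06 with the block), a call that ended on leaving out either strongly adherent library or the weakly adherent one of 12 March. INSIG2, the second SCAP anchor, fell with the block (log2 fold change -0.32, edgeR's adjusted p = 0.011), did not pass without it (0.37), and missed the threshold in limma-voom with the random block (0.067). INSIG2 rose by date, at 25.6 and 28.2 CPM in the weakly and strongly adherent libraries of 15 March against 17.6 and 25.3 CPM on 6 March (log2 fold change 0.34, SE 0.10, edgeR's adjusted p = 0.0089). RNF139, another ligase of the endoplasmic reticulum, did not pass by date (0.29, SE 0.12, edgeR's adjusted p = 0.091).

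Of 12 genes for sterol storage, efflux and lysosomal transport, 2 rose and 1 fell by date. ABCA1, which exports cholesterol, had 31.4 and 23.0 CPM in the weakly and strongly adherent libraries of 15 March, against 20.3 and 15.3 CPM on 6 March (log2 fold change 0.61, SE 0.10, edgeR's adjusted p = 1.3e-07). Within both dates it was also higher in weakly adherent cells, at 0.43 with the block (SE 0.10, edgeR's adjusted p = 0.00029, limma-voom's 0.045 with the random block), against adjusted p = 0.47 without it. With the coding length trend removed, with the block or without it, none of the 12 genes was called higher by adhesion, ABCA1 included. SOAT1, which esterifies cholesterol, rose by date (0.20, edgeR's adjusted p = 0.040), and the sterol carrier OSBP fell (-0.25, adjusted p = 0.0083). SCARB1, a lipoprotein receptor, fell in weakly adherent cells in the edgeR fit with the block (-0.21, edgeR's adjusted p = 0.041), but passed neither without it (0.31) nor with limma-voom's random block (0.068), and MYLIP passed in no fit (adhesion adjusted p = 0.29).

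In fatty acid elongation, desaturation and activation 18 genes were tested, of which 3 rose by date. HSD17B12, a reductase of fatty acid elongation, had 125 and 125 CPM in the weakly and strongly adherent libraries of 15 March, against 94.4 and 97.96 CPM on 6 March (log2 fold change 0.37, SE 0.07, edgeR's adjusted p = 6.8e-06). ELOVL7, an elongase, rose by date at low level (0.54, SE 0.15, edgeR's adjusted p = 0.0062), as did the ligase ACSL3 (0.23, adjusted p = 0.023). With the block ELOVL7 fell in weakly adherent cells (-0.49, edgeR's adjusted p = 0.015), as did ACSL4 (-0.21, 0.021). Neither passed edgeR's test without the block (adjusted p = 0.34 and 0.70) or limma-voom's with the random block (0.052 and 0.25). FADS3 had an adhesion log2 fold change of -0.27 (edgeR's adjusted p = 0.19).

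The other lists held few calls. Of 10 genes for glycerolipid synthesis and droplets, LPIN1, a phosphatidate phosphatase, rose by date (0.24, edgeR's adjusted p = 0.036), and with the block DGAT2, which makes triglyceride, fell by adhesion (-0.46, adjusted p = 0.0027, against 0.14 without it) while the droplet coat protein PLIN3 rose (0.18, adjusted p = 0.049, against 0.26). With limma-voom's random block DGAT2 passed (adjusted p = 0.021) and PLIN3 did not (0.059). Of 8 genes for citrate and NADPH supply, IDH1 rose by date (0.27, edgeR's adjusted p = 0.024), TKT did not pass (-0.14, adjusted p = 0.20), and by adhesion SLC25A1, at -0.14, did not pass (adjusted p = 0.44). Of 11 genes for isoprenoid use none was called by date. ICMT, the 1 gene higher by date at an unadjusted p under 0.05, had a log2 fold change of 0.14 (edgeR's adjusted p = 0.21), and COQ2 had one of -0.18 (adjusted p = 0.25). ICMT fell by adhesion in the edgeR fit with the block (-0.20, edgeR's adjusted p = 0.025), but passed neither without it (0.36) nor with limma-voom's random block (0.072), while RABGGTB did not pass (0.16, adjusted p = 0.34).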

How the data were processed

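Total RNA was made into Illumina TruSeq Stranded libraries and read as single 50 bp ends, per the labels' protocols. The submitters' processing notes list cutadapt, FastQC, STAR, HTSeq and DESeq2 with build hg19. Annotation, tool versions and strand setting were not given in the sources used here. The authors deposited raw counts per gene symbol, used here, and a table on a log scale, not used. The 5 HTSeq summary rows, 26.2% to 27.4% of all reads, stayed out of library sizes and tests.

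Tests on the counts used edgeR 4.0.16 under R 4.3.3 (TMM, filterByExpr, robust quasi-likelihood F test, Benjamini-Hochberg over all genes tested, threshold 0.05). The adhesion fit took 5 libraries (3 residual degrees of freedom), and the date fit, 15 minus 6 March, took 4 with adhesion as covariate (1). The SE is the log2 fold change divided by the square root of F. Behind F, edgeR draws a gene's error partly from the spread pooled over genes. In the date and blocked fits, with 1 residual degree of freedom, the pooled part carries almost all of it. Alternatives were DESeq2 1.42.0, limma 3.58.1, other filters and scaling, a date block, left-out libraries, and a trend with coding length (natural spline, 5 degrees of freedom, longest coding sequence per symbol in GENCODE 29, found for 88.5% of tested genes). The fits were also run on simulated counts, drawn independently for each library, without pairing or a coding length trend. That checks the code and not how the fits suit these data.

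The pairs come from the dates in the titles, which both groups share: deviations from the group means correlated across genes at 0.34 for the libraries of 6 March and 0.20 for those of 15 March. The 2 values are not independent, since 2 strongly adherent libraries deviate as mirror images, and the weakly adherent library of 12 March gave 0.16 with the strongly adherent one of 15 March, so the pairing rests on the titles. The blocked fit leaves 1 residual degree of freedom and takes nothing from 12 March. Replicates of a group differed beyond sampling noise, with 7.49 to 12.6 as chi-square per degree of freedom. Named in the text were genes called in any of the 3 fits, the 6 with the smallest p in each, 11 set genes (HMGCS1, IDI1, SQLE, INSIG1, SREBF1, SREBF2, SCAP, FASN, ACACA, ACLY and SCD), and from each pathway list the 2 with the smallest p by adhesion and by date, with other list genes that were called. Some genes that this rule or the marker list names are not reported here. The genes and lists were chosen with earlier results of these data known.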

Additional observations from a re-analysis of the deposited data

Results flagged for a closer look

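LSS, the lanosterol synthase, and SCD moved in opposite directions in the pairs of the shared dates, as did 13 other genes of the 32. They are given because both ratios exceeded counting error, which replicate libraries here also do, so this does not set them apart. The log2 ratio of weakly over strongly adherent cells was 0.0833 on 15 March and -0.125 on 6 March for LSS, and 0.166 on 15 March and -0.116 on 6 March for SCD. With 1 pair per date the difference was not tested.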

How the results depend on the processing

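With the date as replicate block, edgeR called 825 genes higher and 702 lower in weakly against strongly adherent cells, against 235 and 122 without it, and limma-voom with the block as a random effect called 682 and 531. The pairing changed no call among the 32 genes. Without a filter 203 genes were lower. With the coding length trend removed 123 were higher, or 601 and 695 lower with the block, and 0 of the 32 genes were higher in both, since ACACA lost its call. Leaving out 1 library gave 82 to 238 genes higher, 34 to 103 lower and 0 to 1 of the 32 higher, and the median over the 32 genes ran from -0.05 to 0.05.

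Between the dates, without the adhesion covariate 0 genes were higher and 0 lower, 0 of the 32 included, with edgeR's adjusted p of 0.21 to 0.48 for the 7 genes. DESeq2's Wald test called 158 higher and 43 lower, and 3 of the 32 higher. With the length trend removed 631 genes were lower, 1 of the 32 (FASN) among them, and STARD4 lost its call (edgeR's adjusted p = 0.064). The median over the 32 genes was 0.045 to 0.20 with 1 library left out; counts had no such value, as no residual degree of freedom is left. The cause of these shifts was not tested. Of the 32 genes, none that was called turned its direction under these alternatives. Scaling by DESeq2's size factors moved the median of all genes by -0.0026 by adhesion and -0.0028 by date. With 3 and 2 libraries a group, a gene that missed the threshold is not shown to be equal.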
